A study of Mus musculus with 6 samples.

Results

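Heat shock proteins and DnaJ co-chaperones were examined in cultured mouse peritoneal macrophages that had or lacked the microRNA pair miR-221/222. The members are all genes whose symbol starts with Hsp or Dnaj followed by a family letter or number, which were listed once and had an accepted estimate in every library. They number 75 of 22821 genes that met the same conditions. Messenger RNA was sequenced from C57Bl/6 cells of 2 genotypes, wildtype (WT) and miR-221/222 -/Y, a deletion of the X-linked locus (KO). Naive cells were untreated. LPS cells received 1000 ng/ml lipopolysaccharide, a bacterial cell wall component, for 4 h. Tolerized cells received 10 ng/ml for 15 h, were washed, rested for 2 h and then received 1000 ng/ml for 4 h. Each of the 6 groups is 1 library here, although the design text speaks of triplicates, and whether libraries were pooled is not given in the sources used here. Levels are FPKM, fragments mapped to a gene relative to its transcript length and to all mapped fragments, and so are comparable between genes. Where 3 values are given for a genotype, they stand in the order naive, LPS, tolerized.

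HSP70 proteins bind exposed hydrophobic stretches of unfolded proteins in a cycle driven by ATP. DnaJ proteins (also called HSP40) bring clients to HSP70 and stimulate its ATPase through their J domain, and HSP110 proteins and other exchange factors reset the cycle by releasing ADP. HSP90 completes the folding of signalling proteins, many of which act in the macrophage response to LPS, and separate sets of these chaperones serve the cytosol, the mitochondrion and the endoplasmic reticulum (ER), the entry point of secreted cytokines.

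By family, the members comprise 3 HSP90 genes, 11 HSP70 genes, 3 HSP110 genes, 7 small heat shock proteins, 2 subunits of the mitochondrial chaperonin, and 4, 13 and 28 DnaJ genes of class A, B and C. Another 4 were matched by name alone: Hspg2 encodes perlecan, a matrix proteoglycan, Hspb11 an intraflagellar transport protein, Hspbp1 a nucleotide exchange factor of HSP70 and Hspbap1 a protein named for binding a small heat shock protein. Of the 75 members, 58 reached 2 FPKM in at least 2 libraries and were tested. Among the other 17, 14 stayed below 1 FPKM in every library, and 5 of these (Dnajb8, Dnajc22, Dnajc5b, Dnajc5g and Hspb3) were listed at 0 throughout. The small heat shock proteins made up 5 of those 14 (Hspb2, Hspb3, Hspb7, Hspb8 and Hspb9).

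The libraries were similar in depth, with 17.6 M to 24.9 M fragments as estimated from the widths of the deposited confidence intervals. The half-width of that interval had a median of 3.72 to 5.69% over members at 10 FPKM or more. The 50 most abundant genes took 35.2% (WT) and 38.8% (KO) of all FPKM in naive cells but 43.3 to 47.0% in the other libraries. By the fit described next, the median over all 10137 genes tested was -0.76 on the log2 scale for LPS against naive, 0.51 for tolerized against LPS and -0.22 for tolerized against naive. Every call was therefore also made after median-of-ratios scaling, which moved these medians to -0.09, 0.05 and -0.02. Mir221 and Mir222 were listed at 0 in all 6 libraries, WT included, so the messenger RNA data do not check the genotype. Macrophage markers dominated (summed FPKM 11489 to 48888 over 6 genes, led by Lyz2). Summed markers of large peritoneal macrophages (Gata6, Timd4 and Icam2) stood at 72.0, 77.7 and 37.9 FPKM in WT. In the KO they stood at 135.7, 154.5 and 62.5. Timd4 was higher and Gata6 lower in the KO in every condition. Summed B cell markers ran from 243.0 to 612.8 FPKM over 4 genes, neutrophil markers from 66.6 to 341.6 with S100a9 and Elane at or near 0 throughout, mast cell markers from 102.9 to 192.1, T and NK cell markers from 1.90 to 9.31, and mesothelial and fibroblast markers from 0.987 to 5.0. Their part in the results was not tested, and in these bulk samples fewer cells of a type and less RNA per cell cannot be told apart.

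Few members supplied most of the chaperone messenger RNA. All members together took 0.524, 0.620 and 0.838% of the summed FPKM in WT and 0.531, 0.701 and 0.665% in the KO. Between 54.7 and 65.5% of that came from 4 genes in each library. Hspa8, the constitutive HSP70 of the cytosol, stood at 516, 967 and 943 FPKM in WT and at 572, 888 and 734 in the KO. Hsp90ab1, the constitutive HSP90, stood at 437, 623 and 720 FPKM in WT and 553, 638 and 595 in the KO. Both were lowest in naive cells in each genotype, but as deposited neither passed the test against LPS (0.77 ± 0.33 SE, adjusted p = 0.084, and 0.36 ± 0.32, adjusted p = 0.36). After rescaling both did, with differences of 1.5 (adjusted p = 0.0099) and 1.09 (adjusted p = 0.027). Hspa5 and Hsp90b1, the ER forms of HSP70 and HSP90, completed the 4 in every library but WT LPS, where Dnaja2 replaced Hsp90b1.

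**Figure D1:**
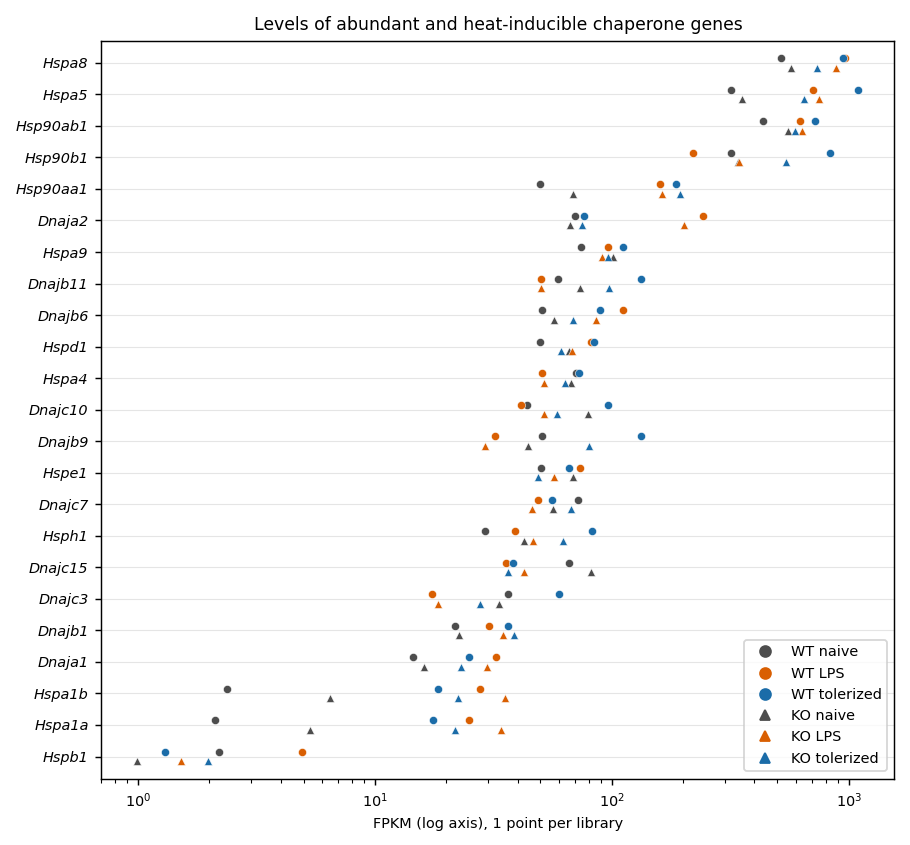
FPKM on a log axis for the members with at least 50 FPKM in a library and the heat-inducible and organelle chaperones that were always described, 1 point per library, circles for WT and triangles for KO, coloured by condition. Hspa8 and Hspa5 reached 967 and 1099 FPKM, while Hspa1a started at 2.11 FPKM in WT naive cells and stood at 17.5 to 34.0 in all stimulated libraries.

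The first comparison asked what LPS did to naive cells. The heat-inducible HSP70 pair, the inducible HSP90 gene and the class A co-chaperones Dnaja1 and Dnaja2 were higher after LPS. Some class B and C DnaJ genes were lower, but falls were less frequent among the members than among all genes tested. Differences are of log2(FPKM + 1), fitted with limma over all 6 libraries with genotype and condition as terms, so that WT and KO serve as the pair of libraries of each condition. As deposited, 9 of 58 members rose, against 8.74% of all genes tested, and 22 fell, against 54.4%. After rescaling 21 of 57 rose (background 20.0%) and 7 fell (26.7%). Past the threshold of 0.05 under both scalings were 9 risers (background 8.74%) and 7 fallers (26.3%). The members' median was -0.34 as deposited and 0.38 after rescaling, in each case above that of all genes.

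Hspa1a and Hspa1b encode the HSP70 that is nearly silent at rest and made on heat shock. Their loci lie 10120 bases apart (mm9, chr17:35106304-35109101 and chr17:35093374-35096183), and their coding sequences share 1915 of 1926 aligned bases (99.43%). How reads were divided between them is therefore uncertain, and in counts of members the pair may not stand for separate measurements. Hspa1a stood at 2.11, 25.1 and 17.5 FPKM in WT and at 5.30, 34.0 and 21.7 in the KO. Hspa1b stood at 2.38, 27.7 and 18.4 in WT and 6.46, 35.3 and 22.4 in the KO. Summed, the pair gave 4.49, 52.8 and 36.0 FPKM in WT and 11.8, 69.3 and 44.1 in the KO, so that the naive libraries lay far below all 4 others. Hspa1a rose by 2.77 ± 0.24 (SE) on the log2 scale after LPS (adjusted p = 0.00051) and Hspa1b by 2.68 ± 0.27 (adjusted p = 0.00066). Their neighbour Hspa1l, a testis-enriched HSP70 gene that lies 546 bases from Hspa1a and shares 82.9% of its coding sequence, was scarce at 1.06 and 1.30 FPKM in naive and 1.93 and 2.34 FPKM in LPS cells of WT and KO. It rose by 0.52 ± 0.18 (adjusted p = 0.044), a call that was lost when any 1 of the 6 libraries was left out (adjusted p up to 0.19) and with no filter on low values (adjusted p = 0.071). Neither naive library of Hspa1l reached the filter's 2 FPKM, so it was tested only because it was higher in stimulated cells.

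Hsp90aa1, the stress-inducible HSP90 of the cytosol, stood at 49.7, 160 and 186 FPKM in WT and 68.5, 163 and 195 in the KO. It rose by 1.45 ± 0.24 after LPS (adjusted p = 0.003), and both naive libraries lay below the other 4. Dnaja2, a class A co-chaperone that feeds clients to HSP70, had a different course, with 69.9, 243 and 76.3 FPKM in WT and 66.7, 202 and 74.9 in the KO. It was about level in naive and tolerized cells and high only in the LPS libraries. The rise was 1.69 ± 0.23 (adjusted p = 0.0014). Dnaja1, its close relative, stood at 14.5, 32.3 and 25.0 FPKM in WT and 16.1, 29.7 and 23.0 in the KO and rose by 0.97 ± 0.20 (adjusted p = 0.0063). These 5 genes, the Hspa1a/Hspa1b pair included, passed the threshold in each of the 6 fits that left out 1 library. The locus of Dnaja1 overlaps that of Smu1 by 1503 bases, and strand-aware counting is not given in the sources used here.

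The other risers depended on single libraries. Hspa5 rose by 1.11 ± 0.36 (adjusted p = 0.036), a call lost without WT naive, WT LPS or KO LPS (adjusted p up to 0.22). Dnajb6, a co-chaperone that keeps aggregation-prone proteins soluble, stood at 50.6, 111 and 89.1 FPKM in WT and 57.1, 85.8 and 68.8 in the KO. It rose by 0.85 ± 0.25 (adjusted p = 0.023), which was lost without the same 3 libraries (adjusted p up to 0.12). Hspa4l, an HSP110 exchange factor, stood at 11.6, 17.6 and 17.4 FPKM in WT and 13.4, 42.4 and 21.3 in the KO, so that KO LPS stood apart from the other 5 libraries. Its rise of 1.07 ± 0.30 (adjusted p = 0.02) was lost without KO naive or KO LPS (adjusted p up to 0.12). Without KO LPS, 5 members rose in place of 9.

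Of the 7 members that fell under both scalings, 6 are DnaJ genes. Most members tested are DnaJ genes too (4 of class A, 9 of class B and 23 of class C). Of the 23 in class C, 13 fell as deposited (all genes 54.4%) and 5 after rescaling (26.7%). Their median was -0.85 as deposited, beside -0.76 for all genes. Dnajb14, an ER membrane co-chaperone, stood at 22.4, 3.11 and 5.30 FPKM in WT and 12.9, 2.73 and 5.17 in the KO, and fell by 2.20 on the log2 scale (SE 0.24, adjusted p = 0.0008). Dnajc28 stood at 4.22, 0.0878 and 0.964 FPKM in WT and 2.97, 0.0145 and 0.505 in the KO and fell by 2.12 (SE 0.18, adjusted p = 0.00051). In both genes each naive library lay above the other 4. Dnajc28, like Hspb6 and Hspbap1, passed the filter of 2 FPKM in 2 libraries through its naive values alone, so it had to be lower elsewhere. With no filter its adjusted p was 0.0072. Dnajc16, Dnajc9, Dnajc4, Dnajc18 and Hspb11 fell by 1.54, 1.52, 1.52, 1.43 and 1.31. All 7 calls held in every fit without 1 library that tested the gene, which for Dnajc28 were the 4 that kept both naive libraries. Dnajc18 reached the filter's 2 FPKM in no LPS library, so it was tested only through its naive and tolerized values. The same holds for Hspa2, which fell as deposited only. Dnajc9 links the HSP70 machinery to histone supply, and stood at 14.7 and 11.2 FPKM in naive against 3.92 and 3.69 FPKM in LPS cells of WT and KO. The remaining 15 fallers passed only as deposited (Hspb6 was not tested after rescaling). For 3 of them, Dnaja3, Dnajb12 and Dnajc19, the difference changed sign on rescaling. Without KO naive, WT LPS or KO LPS the 22 fallers became 11, 14 and 14.

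**Figure D2:**
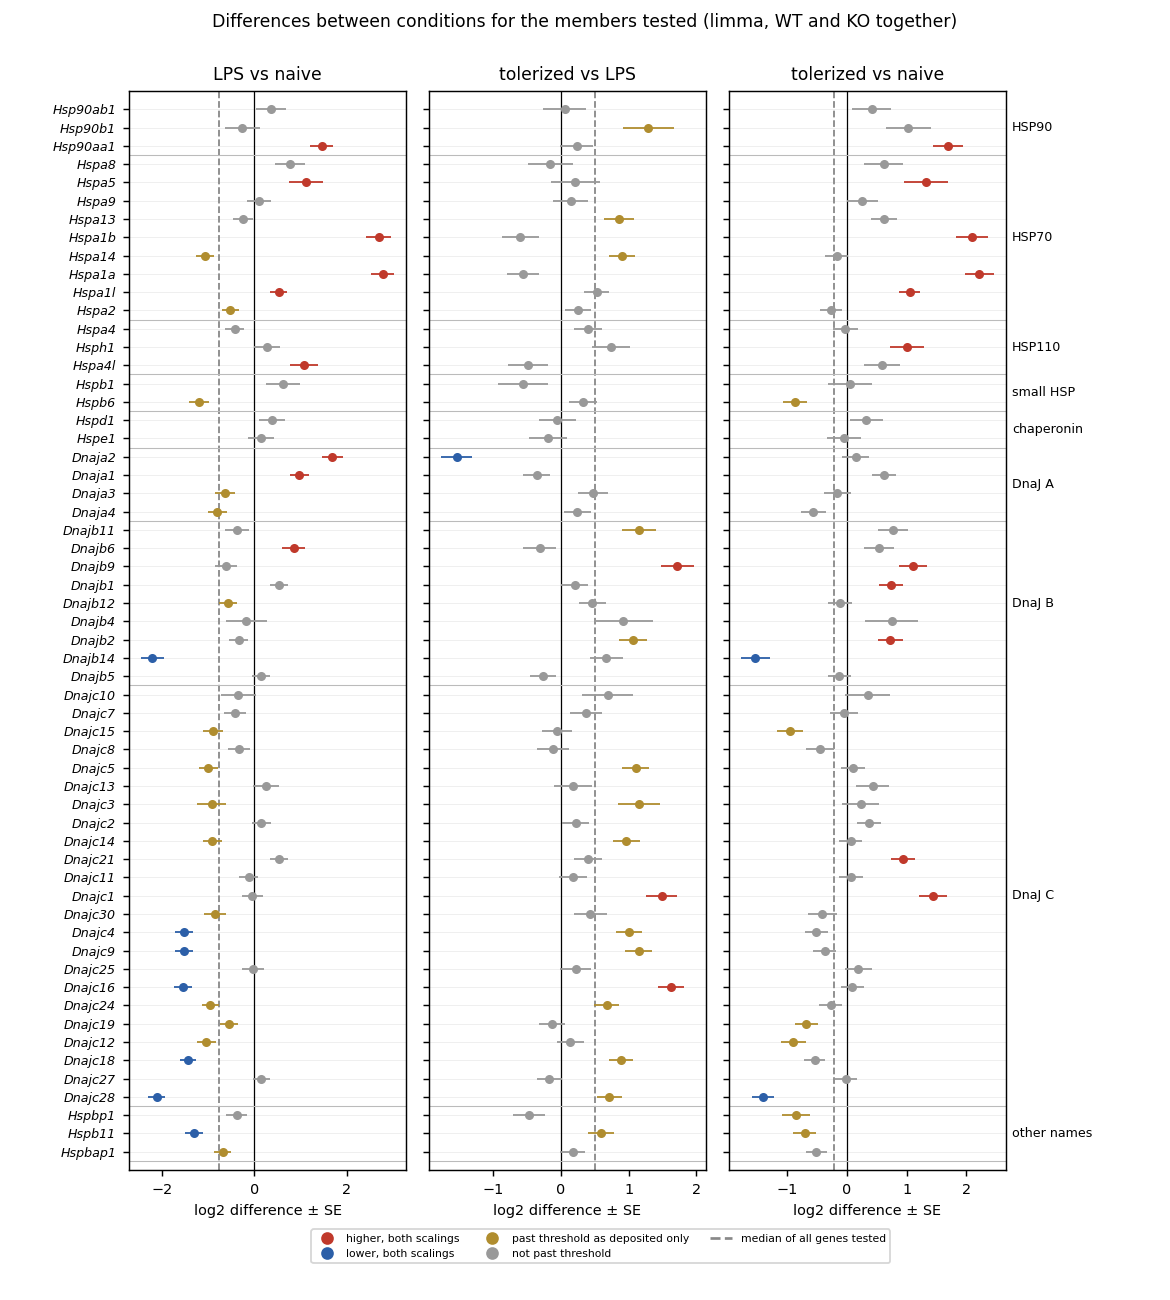
Log2 differences with standard errors for the 58 members tested in 3 contrasts, ordered by family, with the median of all genes tested as a dashed line and the calls in colour (gold includes Hspb6, which was not tested after rescaling). The inducible HSP70 and HSP90 genes lie at 1.45 or above for LPS against naive, while Dnaja2 alone is marked lower for tolerized against LPS.

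Heat shock factor, a regulator of heat shock genes, binds inverted repeats of GAA. The motif GAANNTTCNNGAA was searched on both strands from 250 bases before to 50 bases after each start site (RefSeq promoters, GRCm38.p6). It was found in 4 of the 61 members with a promoter entry (6.557%) and in 179 of 27018 genes (0.6625%). The 4 are Dnajb6, Hspd1, Hspe1 and Hsph1, and those of Hsph1 lie after its start site. Of these, Dnajb6 rose after LPS under both scalings and the others only after rescaling. Hspa1a, Hspa1b, Hsp90aa1 and Dnaja1, which also rose, are not among the 4, for lack of a match or of a promoter entry. The stretch of Dnajb6 and the one that the Hspd1 and Hspe1 pair shares are shown. Capitals mark the motif, which in the second is covered by overlapping matches on both strands:
Dnajb6 (chr5:29735832-29735884, plus strand): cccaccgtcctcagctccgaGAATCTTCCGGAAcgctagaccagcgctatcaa
Hspe1 (chr1:55088039-55088096, plus strand): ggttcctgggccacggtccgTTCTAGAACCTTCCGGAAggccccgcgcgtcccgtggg

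The second stretch is shared by Hspd1 and Hspe1, the large and small subunits of the mitochondrial chaperonin, which are divergent neighbours 215 bases apart in the deposited annotation. Hspd1 stood at 49.7, 81.9 and 84.4 FPKM in WT and 65.9, 67.9 and 61.2 in the KO. Hspe1 stood at 50.3, 73.2 and 65.7 FPKM in WT and 68.3, 57.0 and 48.7 in the KO. Both were lowest in the naive library of WT and in the tolerized library of the KO. Neither passed the test as deposited for LPS against naive (0.38 ± 0.28, adjusted p = 0.27, and 0.14 ± 0.28, adjusted p = 0.69), whereas both rose after rescaling (1.10, adjusted p = 0.017, and 0.86, adjusted p = 0.04). Their mitochondrial partner Hspa9, the HSP70 of the matrix, stood at 74.2, 96.1 and 112 FPKM in WT and 101, 90.7 and 95.9 in the KO, and passed only after rescaling (0.83, adjusted p = 0.034).

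Counted as a list, 11 members are textbook targets of heat shock factor (Hspa1a, Hspa1b, Hspa8, Hsp90aa1, Hsp90ab1, Hsph1, Hspb1, Dnaja1, Dnajb1, Hspd1 and Hspe1). As deposited, 4 of the 11 rose after LPS (all genes 8.74%) and none fell (54.4%), with a median of 0.61 beside -0.76 for all genes. The near-identical pair Hspa1a and Hspa1b is among these 4. After rescaling 10 of the 11 rose (all genes 20.0%), with a median of 1.24 beside -0.09. Hspb1, the small heat shock protein HSP27, was the exception, at 2.20, 4.90 and 1.29 FPKM in WT and 0.993, 1.52 and 1.97 in the KO. The messenger RNA of Hsf1, the factor itself, stood between 12.8 and 19.9 FPKM and passed in no contrast. Hsf2, another heat shock factor, stood at 10.8, 12.3 and 18.5 FPKM in WT and 10.2, 9.54 and 17.4 in the KO. It passed for LPS against naive only after rescaling (0.71, adjusted p = 0.024). For tolerized against naive it rose under both scalings (0.72 ± 0.19 as deposited, adjusted p = 0.04). Against LPS it rose as deposited only (0.68 ± 0.19, adjusted p = 0.036). Among 22 tested co-chaperones and factors outside the family, 2 rose and 6 fell as deposited (all genes 8.74% and 54.4%), and 8 rose and 1 fell after rescaling (20.0% and 26.7%). Stip1, which bridges HSP70 and HSP90, stood at 41.6, 112 and 106 FPKM in WT and 45.5, 76.8 and 78.9 in the KO. It rose after LPS (1.08 ± 0.25, adjusted p = 0.011). Bag3, an exchange factor of HSP70 and itself heat-inducible, fell by 0.76 (SE 0.24, adjusted p = 0.032) as deposited and did not pass after rescaling (-0.07, adjusted p = 0.81). The 8 subunits of the cytosolic chaperonin TRiC did not pass as deposited and all rose after rescaling.

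The second comparison set restimulated tolerized cells against cells given their first LPS. As deposited, 6 of the 10 members listed as ER members were higher in tolerized cells, and Dnaja2 lay close to its naive values. Over all families, 17 of 58 members were called higher (all genes 36.8%) and 1 was called lower (4.32%). Among the 17 is Dnajc18, which was tested only through its naive and tolerized values. After rescaling, 3 of 57 were higher (10.2%) and 6 lower (8.13%). Under both scalings 3 rose (background 9.99%) and 1 fell (4.32%). The members' median was 0.29, below the 0.51 of all genes. The 17 calls became 5, 3, 7 and 8 without WT LPS, KO LPS, WT tolerized and KO tolerized, and the 1 lower call became 0 without KO LPS and 2 without KO tolerized.

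Dnajb9, the ER co-chaperone ERdj4 that acts with Hspa5, stood at 51.0, 32.3 and 133 FPKM in WT and 44.3, 29.2 and 80.2 in the KO. In each genotype the tolerized library was the highest and the LPS library the lowest. It rose by 1.72 ± 0.24 against LPS (adjusted p = 0.0079). Dnajc1, an ER membrane co-chaperone, stood at 9.30, 7.23 and 27.4 FPKM in WT and 10.2, 12.1 and 28.8 in the KO. It rose by 1.49 ± 0.23 (adjusted p = 0.0085), and the tolerized libraries lay above the other 4. Its locus overlaps Mllt10 by 6058 bases. Dnajc16, a class C gene of little-known role, stood at 8.01, 1.82 and 8.66 FPKM in WT and 8.89, 2.72 and 9.43 in the KO and rose by 1.63 ± 0.19 (adjusted p = 0.0071), so that its tolerized values lay next to its naive ones. These 3 calls held in all 6 fits without 1 library. Dnaja2 fell by 1.54 (SE 0.23, adjusted p = 0.008), a call lost without KO LPS (adjusted p = 0.051). The heat-inducible Hspa1a and Hspa1b did not pass as deposited (-0.56 ± 0.24, adjusted p = 0.11, and -0.60 ± 0.27, adjusted p = 0.12) and fell only after rescaling, as did Dnaja1.

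The fixed list of ER members held Hspa5, Hsp90b1, Hspa13, Dnajb9, Dnajb11, Dnajb12, Dnajb14, Dnajc1, Dnajc3 and Dnajc10. It may not hold every member whose product works there. Of these 10, 6 rose as deposited (all genes 36.8%) and none fell (4.32%), with a median of 1.01 beside 0.51 for all genes. After rescaling 2 of the 10 rose (Dnajb9 and Dnajc1; all genes 10.2%), with a median of 0.50 beside 0.05. Hsp90b1, the ER HSP90 (GRP94) needed to fold Toll-like receptors, stood at 320, 220 and 838 FPKM in WT and 342, 345 and 545 in the KO and rose by 1.29 ± 0.37 (adjusted p = 0.037). Dnajb11, which hands clients to Hspa5, stood at 59.4, 50.4 and 132 FPKM in WT and 73.5, 50.5 and 97.2 in the KO and rose by 1.15 ± 0.26 (adjusted p = 0.018). Dnajc3, an inhibitor of the stress kinase PERK and an ER co-chaperone, stood at 36.5, 17.4 and 60.0 FPKM in WT but 33.3, 18.4 and 27.9 in the KO. It rose by 1.15 ± 0.31 (adjusted p = 0.03), and only in WT did the tolerized library exceed the naive one. Hspa13, a microsomal HSP70, stood at 16.5, 16.2 and 31.4 FPKM in WT and 18.2, 12.9 and 23.5 in the KO and rose by 0.86 ± 0.22 (adjusted p = 0.025). These last 4 calls were lost after rescaling (adjusted p from 0.12 to 0.25) and without WT LPS, WT tolerized or KO LPS (Hspa13 also without KO tolerized), with adjusted p up to 0.27.

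The ER stress response element, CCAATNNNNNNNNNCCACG, is bound by factors of the unfolded protein response, the pathway that raises ER chaperones when folding falls behind. It was present on either strand in 3 of 61 member promoters (4.918%) and 37 of 27018 in all (0.1369%). The 3 are the promoters of Hspa5, Hsp90b1 and Dnajc3, all ER members, which are shown. Their deposited intervals were apart between the tolerized libraries of WT and KO. The same held for Dnajb9, Dnajc10, Dnajb11 and Hspa13, for which no element was found. Capitals mark the element, and Hsp90b1 holds it once on each strand:
Hspa5 (chr2:34772005-34772063, plus strand): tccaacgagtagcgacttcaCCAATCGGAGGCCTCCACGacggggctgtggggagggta
Dnajc3 (chr14:118937807-118937865, plus strand): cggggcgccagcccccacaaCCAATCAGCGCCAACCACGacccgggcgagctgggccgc
Hsp90b1 (chr10:86705513-86705676, minus strand): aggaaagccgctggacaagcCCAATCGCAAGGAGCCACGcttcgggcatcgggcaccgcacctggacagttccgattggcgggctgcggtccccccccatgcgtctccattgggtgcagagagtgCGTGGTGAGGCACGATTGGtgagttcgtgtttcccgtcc

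Of 23 other genes of the unfolded protein response and ER folding, 15 rose (all genes 36.8%) and 1 fell (4.32%) in tolerized against LPS cells as deposited, with a median of 1.06. Rescaling left 3 risers (all genes 10.2%) and 1 faller, with a median of 0.56. Hyou1, the ER relative of HSP110, stood at 26.4, 24.5 and 110 FPKM in WT and 40.7, 33.1 and 53.2 in the KO and rose by 1.39 ± 0.41 (adjusted p = 0.038, as deposited only). Creld2, an ER stress gene, stood at 33.3, 28.3 and 147 FPKM in WT and 40.2, 32.9 and 80.9 in the KO and rose under both scalings (1.81 ± 0.32 as deposited, adjusted p = 0.011). Xbp1, a transcription factor of the pathway, passed in no contrast at 85.6 to 170 FPKM. Ddit3, which encodes the stress factor CHOP, was highest in KO tolerized cells, at 48.1 FPKM beside 14.3 to 25.1 in the other libraries, and thus ran opposite to the ER chaperones between the tolerized genotypes.

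The third comparison set tolerized restimulated cells against naive ones, which share the naive libraries with the first comparison. The inducible HSP70 and HSP90 genes and 3 ER members were above their naive level, and Dnajb14 and Dnajc28 were below it. As deposited, 11 of 58 members rose (all genes 7.41%) and 8 fell (19.7%). After rescaling 14 of 57 rose (9.2%) and 2 fell (12.0%). Under both, 11 rose (7.34%) and 2, Dnajb14 and Dnajc28, fell (11.8%). Hspa1a was higher by 2.21 ± 0.24 (adjusted p = 0.0035), Hspa1b by 2.09 ± 0.27 (adjusted p = 0.005), Hsp90aa1 by 1.69 ± 0.24 (adjusted p = 0.0067), Dnajc1 by 1.44 ± 0.23 (adjusted p = 0.0083) and Hspa1l by 1.05 ± 0.18 (adjusted p = 0.01). These 5 calls and the fall of Dnajb14 held in all 6 fits without 1 library. Dnajc28 was tested in 4 of these fits, those that kept both naive libraries, and fell in all 4. With no filter on low values the adjusted p was 0.026 for Dnajc28 and 0.040 for Hspa1l, which passed the filter without its naive values.

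The other 6 risers were Hspa5, Dnajb9, Hsph1, Dnajc21, Dnajb1 and Dnajb2. Hspa5 (BiP), the master chaperone of the ER, stood at 320, 705 and 1099 FPKM in WT and 354, 752 and 646 in the KO and rose by 1.32 ± 0.36 (adjusted p = 0.041). Hsph1 (HSP105), an exchange factor of HSP70, stood at 29.2, 39.0 and 82.8 FPKM in WT and 42.4, 46.7 and 62.1 in the KO and rose by 1.01 ± 0.28 (adjusted p = 0.042). In WT both were lowest in naive and highest in tolerized cells, while in the KO Hspa5 was highest after LPS. Dnajb1, the main inducible HSP40 partner of HSP70, stood at 21.8, 30.5 and 36.5 FPKM in WT and 22.6, 34.8 and 38.8 in the KO, and rose by 0.74 ± 0.20 (adjusted p = 0.037). Dnajc21, a factor of ribosome assembly, stood at 10.5, 17.8 and 23.5 FPKM in WT and 12.3, 15.9 and 21.6 in the KO. It rose by 0.93 ± 0.20, Dnajb9 by 1.10 ± 0.24 and Dnajb2 by 0.72 ± 0.21. Each of the 6 lost its call without WT naive or WT tolerized, with adjusted p up to 0.40. Hspa5 and Hsph1 also lost it without WT LPS or KO LPS, Dnajc21 without KO tolerized, Dnajb2 without any KO library and Dnajb1 without any of the 6. The 11 risers became 5, 6 and 7 without WT naive, WT tolerized and KO LPS. The 8 fallers became 1 without KO naive, 3 without WT naive, WT tolerized or KO tolerized, 4 without KO LPS and 5 without WT LPS.

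Across the 58 members tested, 42 had their highest level in the same condition in both genotypes. Naive cells held the maximum for 19 of them, tolerized cells for 14 and LPS cells for 9. The lowest level fell in LPS cells for 27 members in both genotypes, in naive cells for 15 and in tolerized cells for 1. These counts are of deposited values and carry no test. They were not made over all genes, of which 54.4% fell for LPS against naive as deposited. A minimum in LPS cells is therefore not shown to be particular to the members.

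The fourth comparison set the KO against WT over the 3 conditions. With limma no member passed the threshold in either direction, and no gene did (0.0% of all genes tested, both scalings). Unadjusted p-values under 0.05 were found for 4 members (Hspa1a, Hspa1b, Dnaja4 and Dnajc19) and for 707 of all genes (6.97%), and the smallest adjusted p of a member was 0.595. The members' differences ran from -0.51 to 0.58, with a median of -0.10 beside -0.06 for all genes. Hspa1a and Hspa1b were higher in the KO in all 3 conditions with deposited intervals that did not overlap, a rule met by 4.05% of all genes tested. Their fitted differences were 0.58 ± 0.20 and 0.58 ± 0.22. As the division of reads between them is uncertain, the pair may not be separate measurements. No member was lower in all 3 on that rule (all genes 3.24%).

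Within a condition each genotype is a single library, so the differences that follow carry no test, and the deposited intervals cover the estimate of 1 library only. A size of 2-fold is taken on the FPKM + 1 scale, with at least 2 FPKM in either library. In naive cells Hspa1a and Hspa1b were at least 2-fold higher in the KO, a size that 3.95% of all genes reached upward, and no member was as much lower (3.12% of all genes). After rescaling only Hspa1b was that much higher (3.87%). In LPS cells Hspa4l was at least 2-fold higher in the KO (42.4 against 17.6 FPKM; 4.19% of all genes), and Hspb1 (1.52 against 4.90 FPKM) and Dnajb4 (5.88 against 18.8 FPKM) were lower (3.04%). In tolerized cells Dnajc3 alone of the members differed at least 2-fold, lower in the KO (0.763% of all genes), and none was higher by that much (1.81%).

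Of the 10 ER members, 9 had lower values in KO than in WT tolerized cells (all genes tested 52.9%), and 7 of those had intervals apart (all genes 22.3%). Their median was -0.53 beside -0.02 for all genes. Of the 48 other members tested, 32 were lower, 20 with intervals apart, and 8 were higher with intervals apart (all genes 21.0%). Their median was -0.12. The values in WT and KO tolerized cells were 1099 and 646 FPKM for Hspa5, 838 and 545 for Hsp90b1, 133 and 80.2 for Dnajb9, 60.0 and 27.9 for Dnajc3 and 96.8 and 58.7 for Dnajc10, an ER disulfide reductase. Dnajc1 was the exception among the 10 listed, at 27.4 and 28.8 FPKM. In naive and LPS cells the same 10 had medians of 0.11 and 0.08, beside -0.04 and -0.13 for all genes. In each condition 7 of the 10 were higher in the KO. The 23 ER folding genes outside the family had a median of -0.42 in tolerized cells, 18 of them lower in the KO. All 7 mitochondrial members (median -0.25) and all 8 TRiC subunits (-0.32) were lower too. So were 21 of 22 co-chaperones and factors outside the family (-0.21). Of 10 heat shock factor targets 6 were lower (-0.20), and of 8 mitochondrial chaperone partners 3 (0.01). A lower level in KO tolerized cells was thus not particular to the ER members. Whether the change from LPS to tolerized cells differed between genotypes could not be tested, because an interaction leaves no residual degrees of freedom. The summed macrophage markers were also lower in KO than in WT tolerized cells (11489 against 17551 FPKM), led by Lyz2, while Cd68 alone of the 6 was higher. Of the large peritoneal macrophage markers, Timd4 (29.1 against 14.7 FPKM) and Icam2 (32.9 against 22.1) were higher in the KO. Gata6 was lower (0.576 against 1.07). All 4 B cell markers were higher in the KO (summed 500.2 against 401.3 FPKM). Among neutrophil markers S100a8 was higher (341.4 against 191.1 FPKM) and Retnlg lower (0.203 against 0.721), with S100a9 and Elane at 0 in both. Their part in the result was not tested.

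**Figure D3:**
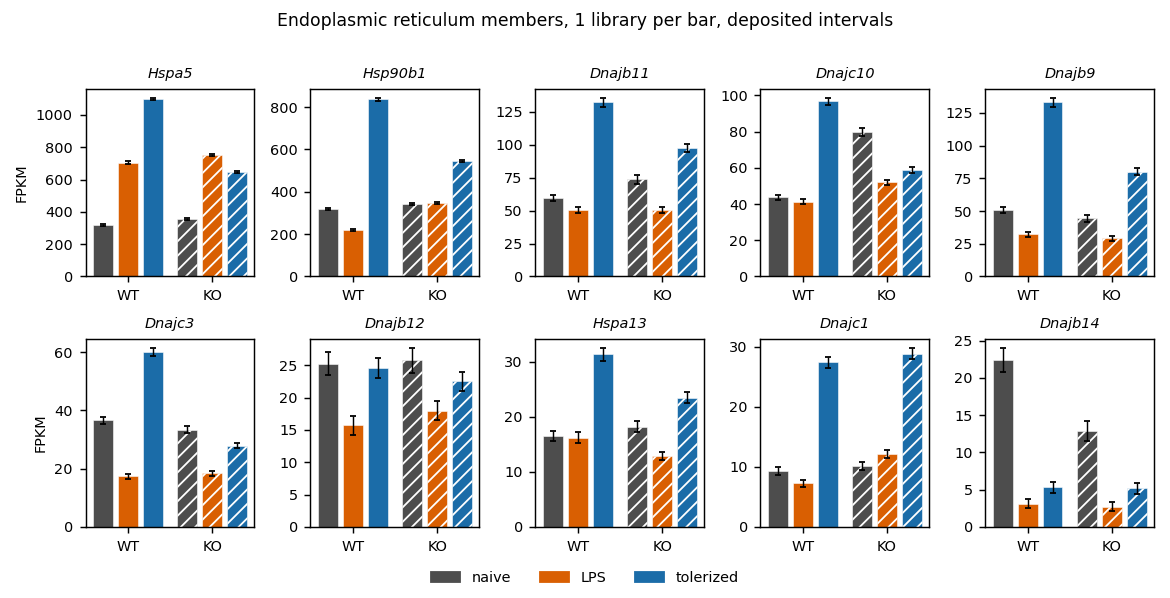
FPKM of the 10 ER members in each library (plain bars WT, hatched bars KO, coloured by condition), with the deposited confidence intervals as error bars. The WT tolerized bar is the tallest for 7 of the 10; Hspa5 reaches 1099 FPKM there and 646 in KO tolerized cells.

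**Figure D4:**
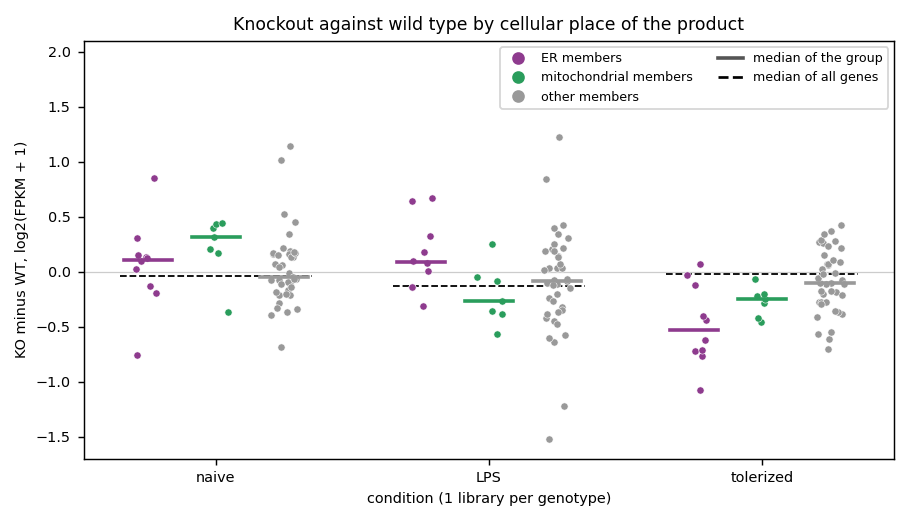
KO minus WT differences of log2(FPKM + 1) for the 58 members tested, by condition and by the place of the product on the fixed lists. The group median is a solid bar and the median of all genes a dashed line. The ER members centre on 0.11, 0.08 and -0.53 in naive, LPS and tolerized cells.

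The deleted microRNAs share their seed, bases 2 to 8, which is in capitals here because sites in target messengers pair with it (RefSeq mature sequences, GRCm38.p6):
miR-221-3p (chrX:19146307-19146329, minus strand): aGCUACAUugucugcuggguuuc
miR-222-3p (chrX:19146901-19146923, minus strand): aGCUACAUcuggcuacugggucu

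The 7 bases complementary to this seed, ATGTAGC, occurred in the annotated 3′ UTR of 9 of the 58 members tested (15.52%), against 994 of 9019 genes with a UTR (11.02%). The 9 are Dnaja1, Dnajb14, Dnajc3, Dnajc5, Dnajc14, Dnajc15, Dnajc16, Dnajc18 and Dnajc30. Sites extended by an A to 8 bases were present in Dnajb14, Dnajc3 and Dnajc15. They are shown with their flanks, in capitals where they match the seed:
Dnajb14 (UTR base 4672): gtcactttaaaATGTAGCactctaatgaa
Dnajc3 (UTR base 1286): aggaagcatgaATGTAGCagccaagcaca
Dnajc15 (UTR base 1299): aataacttagcATGTAGCaaatgttcaga

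Of the 9 members with a site, 3 were higher and 6 lower in the KO by the fit over conditions, with a median of -0.12. Of the 49 without one, 19 were higher and 30 lower, with a median of -0.10. None of the 9 passed the threshold, as none of the 58 did. A letter match is a description and does not show that the site is used.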

How the data were processed

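Poly-A RNA libraries (Illumina TruSeq kit, per the labels' protocols) were processed by the authors with bcl2fastq 1.8.4, TopHat and Cufflinks on mm9, per the submitters' processing notes. The deposited values are FPKM with confidence limits, per the file headers, and strand-aware counting is not given in the sources used here. The loci of 9 members overlap another gene (among those tested Dnaja1, Dnajb6, Dnajc1, Dnajc14, Dnajc19 and Dnajc30), where reads of both could not be told apart without strand. Read counts were not analysed here, and depth was estimated from the interval widths.

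From the deposited FPKM, log2(FPKM + 1) was fitted for 10137 genes (those reaching 2 FPKM in no fewer than 2 libraries) with limma 3.58.1 (R 4.3.3; genotype and condition as terms, empirical Bayes with trend, two-sided), with Benjamini-Hochberg adjustment over all genes and a threshold of 0.05. The fit has 2 residual and 4.205 prior degrees of freedom. With 1 library per group an effect present in 1 genotype only counts as spread, and the p-values measure only the spread between these samples, which may be technical. The script was tested on simulated data. Alternatives were median-of-ratios scaling, pseudocounts of 0.1 and 5, no filter, a filter of 10 FPKM, no trend and leaving out each library. Library factors for the scaling ran from 0.719 to 1.26.

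Members past the threshold in a contrast, those with 50 FPKM or more in a library and a fixed set of 16 chaperones could be described in full. Genes outside the family came from fixed lists (the 4 largest past the threshold per contrast, and Hsf1, Hsf2, Xbp1, Ddit3, Hyou1, Stip1 and Bag3). The members and lists were chosen with earlier results of these data known. Promoters, microRNAs and 3′ UTRs came from RefSeq and GENCODE on GRCm38 and were matched by symbol, with 61 members found among promoters. Locus coordinates are those of the deposited tables (mm9), with the start counted from 1.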

Additional observations from a re-analysis of the deposited data

How the results depend on the processing

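After median-of-ratios scaling 21 members rose and 7 fell for LPS against naive (9 and 22 as deposited), 3 rose and 6 fell for tolerized against LPS (17 and 1), and 2 fell for tolerized against naive (8). For LPS against naive, Dnaja3, Dnajb12 and Dnajc19 reversed to 0.0486, 0.12 and 0.0616. With a filter of 10 FPKM, 12 members fell for LPS against naive and 4 for tolerized against naive, where fewer members were tested. With no filter, 7 rose and 5 fell for tolerized against naive. The other counts under these settings, both pseudocounts and no trend stayed within 1.5 times. Leaving out each library in turn gave 5 to 9 risers and 11 to 18 fallers for LPS against naive, 3 to 17 and 0 to 2 for tolerized against LPS, and 5 to 9 and 1 to 5 for tolerized against naive. In those fits the lone library of a condition is assumed to vary like the others. KO against WT gave 0 under every setting run. No paired analysis was possible because each group is 1 library and the labels carry no replicate numbers. Members near 1 FPKM have wide intervals, and their differences are compressed by the pseudocount.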
